A study of Rattus norvegicus with 6 samples.

Results

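The genes described here are 10 genes of bile acid synthesis, conjugation, transport and control, taken from 19958 genes with an identifier on the array: Cyp7a1, Cyp8b1, Cyp27a1, Cyp7b1, Baat, Slc27a5, Nr0b2, Nr1h4, Abcb11 and Slc10a1. They were chosen by name, and every probe whose symbol in the series table equalled a member was used, which gave 11 probes (2 for Nr1h4, 1 for each other gene) and 45 spots per array. RNA was measured on 6 one-colour rat arrays, all on 1 slide and each from pooled RNA. The animals, Wistar rats that some labels call mice, received AIN-93G diet, a purified rodent diet, with iron (control) or without it (iron-free) for 4 weeks, and liver and kidney RNA from 6 animals was pooled for each diet. The FAO line, derived from rat liver, was grown in serum-containing medium and exposed to the iron chelator deferoxamine (DFO) at 100 µM or the vehicle for 24 h, and RNA from 3 cultures was pooled. The labels name no transgene or gene deletion and give no sex or age. Each group is 1 array, so no test across animals or cultures was possible and a gene was called higher or lower by size alone, at a difference of at least 2-fold (log2 1).

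Bile acids are made from cholesterol in hepatocytes, by a classical route that starts with 7-alpha-hydroxylation and an alternative route that starts with side-chain hydroxylation. The products are activated with coenzyme A, joined to glycine or taurine, pumped into bile and taken up again from portal blood. Bile acids restrain their own synthesis through the nuclear receptor FXR (Nr1h4), which raises SHP (Nr0b2), a nuclear receptor without a DNA-binding domain that dampens transcription of Cyp7a1 and Cyp8b1.

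Promoter sequence is shown for Nr0b2 and Baat, the members that stood furthest below control in iron-free liver and in DFO-treated FAO cells. The RefSeq promoter table (build GRCr8) held 6 of the 10 members: Cyp8b1, Cyp27a1, Baat, Slc27a5, Nr0b2 and Slc10a1. The others are Cyp7a1, Cyp7b1, Nr1h4 and Abcb11. The 250 bases before each start site are given 5′ to 3′ along the gene's own strand. Nr0b2 lies at chr5:151062910-151063159 (plus strand) and Baat at chr5:68656138-68656387 (minus strand). Capitals mark matches to any of 7 searched motifs.
Nr0b2: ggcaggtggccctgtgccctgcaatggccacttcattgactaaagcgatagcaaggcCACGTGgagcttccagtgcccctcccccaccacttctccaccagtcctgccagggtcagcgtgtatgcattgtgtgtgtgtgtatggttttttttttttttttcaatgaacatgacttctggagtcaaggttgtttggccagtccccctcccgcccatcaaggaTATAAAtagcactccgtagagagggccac
Baat: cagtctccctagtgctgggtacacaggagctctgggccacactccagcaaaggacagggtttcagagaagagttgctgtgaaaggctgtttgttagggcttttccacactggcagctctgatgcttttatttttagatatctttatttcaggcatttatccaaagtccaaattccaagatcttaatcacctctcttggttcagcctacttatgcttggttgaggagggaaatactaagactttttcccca

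In the Nr0b2 promoter the capitals are CACGTG, which holds ACGTG (the core of a hypoxia response element) on both strands and starts 193 bases before the start site, and the TATA box TATAAA 29 bases before it. None of the searched motifs was found in the 250 bases of Baat or of Slc27a5. The nuclear receptor half-site AGGTCA was in 2 of the 6 member promoters (Cyp27a1 and Slc10a1) and in 14.1% of 33469 RefSeq promoter windows of the same length. Its extended form CAAGGTCA, which overlaps one of the Cyp27a1 half-sites, was in 1 of 6 and in 1.33% of all. ACGTG was in 2 of 6 (Nr0b2 and Cyp8b1) and in 16.6% of all, TATAAA in 1 of 6 and 12.9%, and the HNF1 half-site GTTAAT in 1 of 6 (Slc10a1) and 6.45%. The direct and the inverted repeat of AGGTCA with 1 base between the copies, the latter known as an FXR element, were in none of the 6 and in 0.0508% and 0.0269% of all. Both strands were searched, and a match is a string of letters and not a measured site.

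Levels below are the array's processed signal, scaled to a common 75th percentile and given in arbitrary units, and they can be compared between arrays for 1 probe but not between probes. The ± beside a difference is a spot standard error, pooled over probes of similar brightness, and it covers technical spot noise only. Between 37.7% and 48.8% of probes were well above background on an array. The control liver array was the least even, with 51 noisy blocks among its 264 blocks of 16 by 16 spots. In a noisy block, repeated spots departed from the median of their probe's spots by a median of more than 0.25 log2 units. The other arrays had 0 to 12 such blocks. Each liver difference was therefore also computed without the noisy blocks, and that value is given where it moves the result. Liver differences also move with the scaling: scaling to the median of the detected probes raised all liver differences by 0.58 log2 units, kidney by 0.20 and FAO by 0.05. Differences between members on the same pair of arrays do not depend on this choice.

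Albumin and Umod matched the labelled tissues, while some other kidney markers were not confined to kidney. Albumin (Alb) read 86391 and 142826 on the control and iron-free liver arrays, 41323 and 43497 on the untreated and DFO-treated FAO arrays, and 29.2 and 23.1 on the kidney arrays, where it was not well above background. Umod, a product of the kidney's loop of Henle, read 200247 and 164908 on the kidney arrays and was not well above background on the others. All 10 hepatocyte markers were measured on the liver and FAO arrays, and 2 of 10 on the kidney arrays. All 8 kidney tubule markers were measured on the kidney arrays, 2 on the liver arrays and 1 on the FAO arrays. The 2 in liver were Slc22a8, at 11717 and 12499 (42012 and 32293 in kidney), and Lrp2, at 215 and 256.

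**Figure D1:**
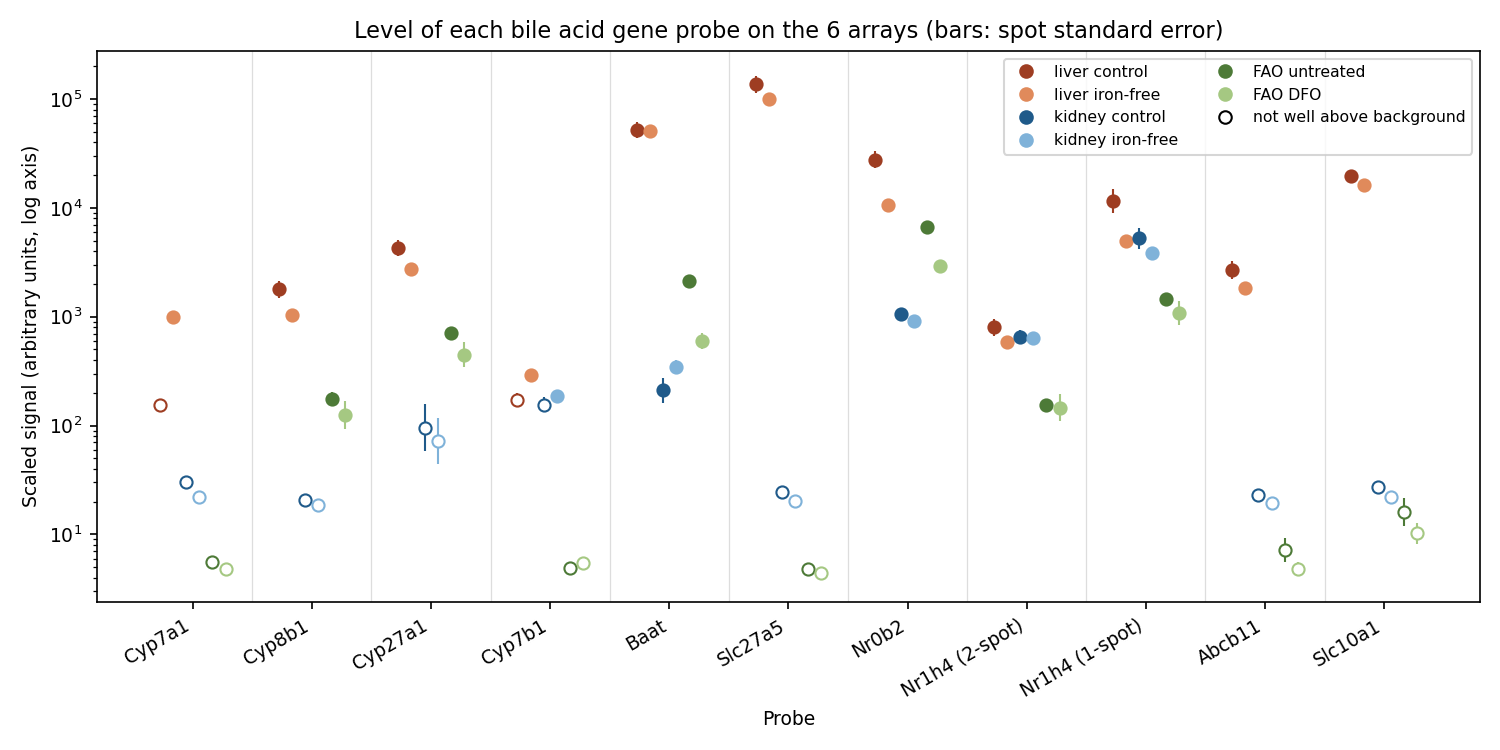
Scaled signal (arbitrary units, log axis) of each of the 11 member probes on the 6 arrays, with bars for the spot standard error and open symbols for probes not well above background. Slc27a5, Slc10a1 and Abcb11 were detected on the liver arrays alone, whereas Nr0b2, Baat and both Nr1h4 probes were detected on all 6.

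On the control arrays, 8 of the 10 genes were well above background in liver, 3 in kidney (Baat, Nr0b2, Nr1h4) and 5 in untreated FAO cells (these 3, Cyp8b1 and Cyp27a1). Slc27a5, the bile acid coenzyme A ligase, was at least 1302-fold brighter in control liver than in control kidney (721 to 1761 over the alternatives). Slc10a1 (NTCP), the sodium-dependent carrier that takes bile acids up from blood, was at least 186-fold brighter in liver than in kidney (98.1 to 252). Abcb11 (BSEP), the bile salt export pump, was at least 25.5-fold brighter there (19.9 to 34.5). Baat, which joins bile acids to amino acids, was detected in both tissues and was 246-fold brighter in liver (136 to 332), and Nr0b2 was 25.9-fold brighter. Nr1h4 was 2.21-fold brighter in liver by its 1-spot probe (1.35 to 2.99) and 1.23-fold by its 2-spot probe (1.22 to 1.66), the latter less than 2 spot standard errors apart.

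FAO cells held part of this set. Against control liver, untreated FAO cells had 4.18-fold less Nr0b2, 6.14-fold less Cyp27a1, 10.1-fold less Cyp8b1 and 24.2-fold less Baat signal. Slc27a5 was at least 6416-fold, Slc10a1 at least 919-fold and Abcb11 at least 126-fold brighter in control liver than in FAO cells, and over the alternatives these values went down to 2864, 337 and 79.0. For the 4 genes named first, the lowest values over the alternatives were 2.80 (Nr0b2), 4.08 (Cyp27a1), 6.75 (Cyp8b1) and 16.2 (Baat). Nr1h4, also detected in both, was 7.95-fold lower in FAO cells by its 1-spot probe and 5.19-fold by its 2-spot probe. Its lowest values over the alternatives were 4.70 and 3.47. The FAO comparison therefore speaks to 5 of the 10 genes, and the kidney comparison to 3 measured genes and a one-sided value for Cyp7b1. These are levels in bulk RNA, in which fewer cells of a type and less RNA per cell cannot be told apart.

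Against this background the liver comparison asked how a diet without iron changed the pathway. Cyp7a1, the enzyme that starts the classical route and limits its rate, was higher on the iron-free array. Nr0b2 and, by 1 of its 2 probes, Nr1h4 were lower. The other 7 genes stayed within 2-fold of control. Of 10 members, 1 was called higher and 2 lower, against 6.52% of 10172 genes called higher and 3.01% called lower (9.53% either way). The median of the 8 measured members was -0.60, against -0.06 over the 8532 genes measured on both liver arrays. That median leaves out the 2 members with one-sided values, Cyp7a1 (2.70) and Cyp7b1 (0.76), both above control. In kidney none of the 4 members with a value was called, against 3.11% of genes higher and 1.26% lower (4.37% either way). In FAO cells 0 of the 5 measured members were higher and 2 were lower, against 4.05% and 6.44% of all genes (10.5% either way), with a median of -0.65 for the members and 0.03 for the 9726 measured genes.

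**Figure D2:**
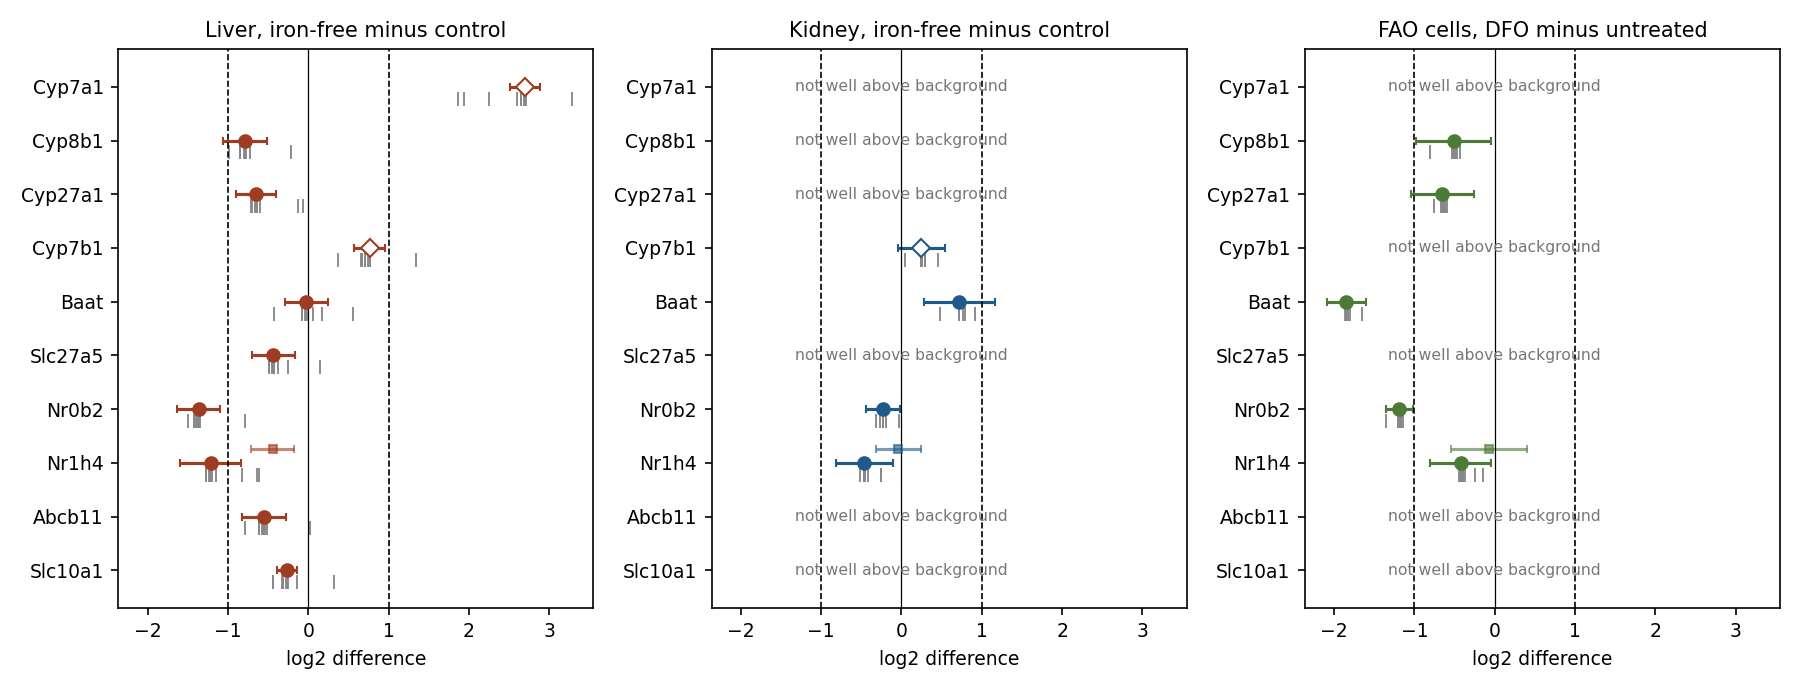
Treated minus control difference (log2 units) of each member in liver, kidney and FAO cells, with bars of 1 spot standard error, open diamonds where one array was not well above background, small squares for the 2-spot Nr1h4 probe, grey ticks for the 10 processing alternatives and dashed lines at 2-fold. Cyp7a1 lay above the 2-fold line in liver under each alternative and Baat and Nr0b2 lay below it in FAO cells under each alternative, while the liver ticks of Baat, Slc27a5, Abcb11 and Slc10a1 fall on both sides of 0.

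Cyp7a1 was measured by 1 probe printed at 10 places on the array. On the iron-free liver array its 10 spots read from 922 to 1207 with a median of 1000.1. On the control liver array they fell into groups by position: 6 spots outside the noisy blocks read from 176 to 314 with a median of 282, all well above background, and 4 spots inside noisy blocks read from 37.5 to 118, none well above background. No control spot reached the lowest iron-free spot, so the arrays did not overlap. Compared place by place, all 10 spots were higher on the iron-free array, by 1.67 to 4.64 log2 units with a median of 2.29.

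Over all spots the Cyp7a1 levels were 153.6 in control and 997.4 in iron-free liver, a difference of 2.70 ± 0.19 log2 units (6.49-fold); the 10 spots' own standard error was 0.35. Since 4 control spots were not well above background, the probe counts as dim on that array and this value is one-sided by rule, but those 4 spots are also the ones in noisy blocks. Without the noisy blocks the probe was measured on both arrays and the difference was 1.94 log2 units (3.83-fold). The range over the 10 alternatives was 1.86, with another background correction, to 3.28, with scaling to the median of detected probes. Each of these values is past 2-fold, and they differ in size. In kidney and FAO cells no Cyp7a1 spot was well above background.

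**Figure D3:**
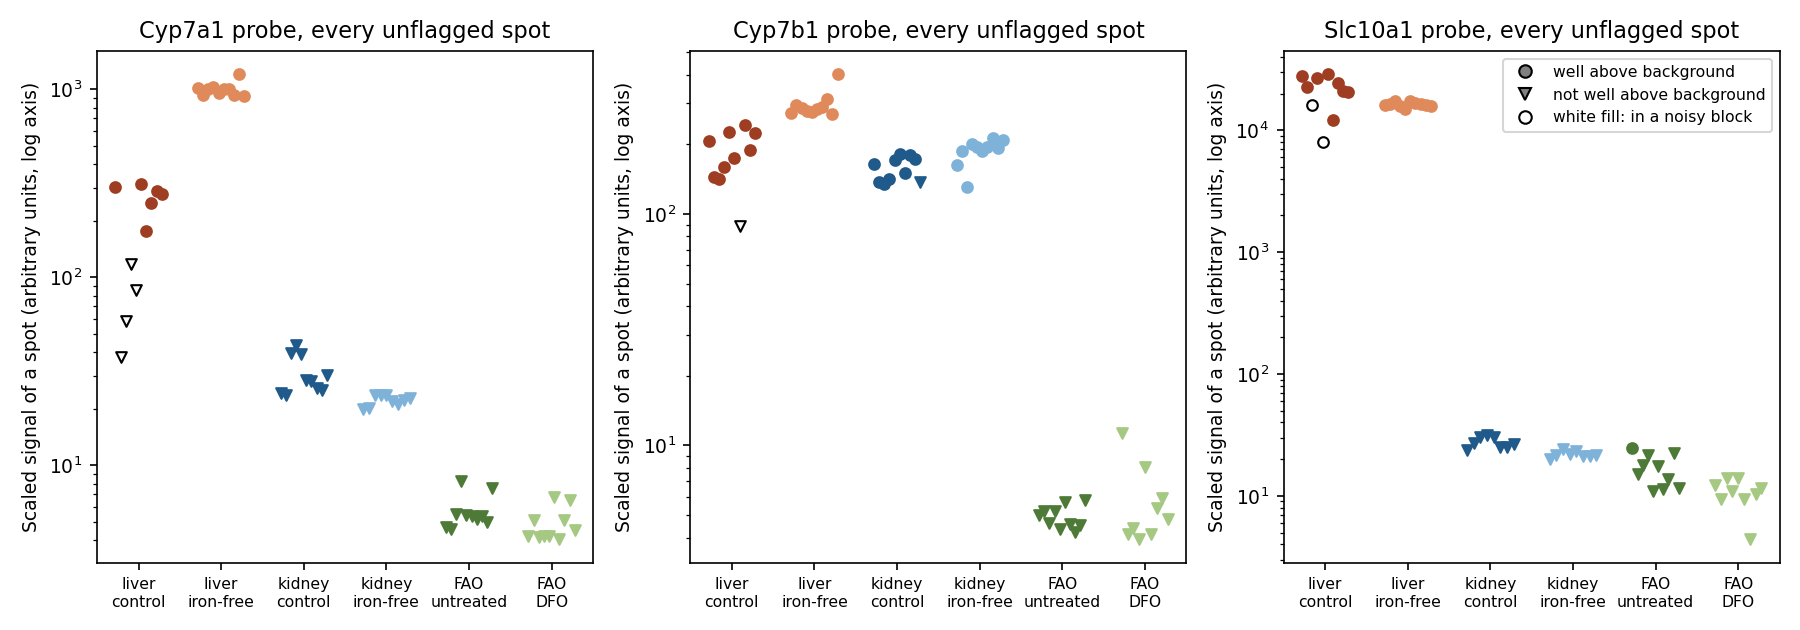
Scaled signal (arbitrary units, log axis) of each spot not marked as an outlier of the Cyp7a1, Cyp7b1 and Slc10a1 probes on the 6 arrays, with triangles for spots not well above background and white fill for spots in noisy blocks. The 4 lowest Cyp7a1 spots of control liver are those in noisy blocks, and its other 6 spots lie between 176 and 314, below all 10 iron-free spots.

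Cyp8b1, the sterol 12-alpha-hydroxylase that sets the balance towards cholic acid, moved the other way within 2-fold. Its spots read 1983 and 1608 in control liver and 1072 and 995 in iron-free liver, so both iron-free spots were below both control spots. The difference was -0.79 ± 0.28, and it shrank to -0.21 with scaling to the median of detected probes. Cyp7a1 and Cyp8b1 are both held down by Nr0b2 in textbook accounts, and here their liver differences were 3.49 ± 0.34 log2 units apart, and 2.71 to 3.49 over the alternatives. In FAO cells Cyp8b1 read 179 and 176 without DFO and 109 and 142 with it, a difference of -0.51 ± 0.47, close to the spot error.

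Cyp27a1, the mitochondrial sterol 27-hydroxylase of the alternative route, was below control in liver and FAO cells without reaching 2-fold. Its control liver spots were 4209 and 4414 and its iron-free spots 2732 and 2755, a difference of -0.65 ± 0.25. In FAO cells 685 and 719 stood against 514 and 388 with DFO, a difference of -0.65 ± 0.39. The spots of the paired arrays did not overlap in either comparison. The liver value was -0.13 with another background correction and -0.07 when arrays were scaled to the median of detected probes, while the FAO values under these were -0.75 and -0.60. In kidney its levels, 96.0 and 71.8, were not well above background.

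Cyp7b1, the oxysterol 7-alpha-hydroxylase of the alternative route, was brighter in iron-free liver at each of its 10 places, by 0.28 to 1.70 log2 units. Its control liver spots read 141 to 243, apart from 1 spot in a noisy block at 89.0 that was not well above background, and its iron-free spots 269 to 402. The levels were 173.1 and 294.2, a difference of 0.76 ± 0.20 (1.70-fold), or 0.67 without the noisy blocks. It was not called, but with scaling to the median of detected probes it was, at 1.35. In kidney Cyp7b1 read 156.0 and 185.3 (0.25 ± 0.29, with 8 of 10 spots higher), where 9 of 10 control spots were well above background. Its control liver and control kidney levels differed by 0.15 ± 0.30 log2 units, and it was not well above background in FAO cells.

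The conjugation genes stayed within 2-fold in liver. Slc27a5 spots read 147543 and 126692 in control and 99777 and 102340 in iron-free liver, a difference of -0.44 ± 0.27 that became 0.14 with scaling to the median of detected probes. Baat read 69633 and 38759 in control liver, the lower spot lying in a noisy block, and 54278 and 48122 in iron-free liver. Its liver difference was -0.02 ± 0.27, -0.43 without the noisy blocks and 0.56 with scaling to the median of detected probes, so its direction in liver is not settled.

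Baat had its largest difference in FAO cells. Its spots read 2224 and 2072 without DFO and 559 and 637 with it, a difference of -1.85 ± 0.25 (3.60-fold lower). The arrays did not overlap, and 0.853% of the measured genes had a lower difference. The alternatives gave -1.87 to -1.66. In kidney the difference pointed upwards, from 205 and 218 to 356 and 341 (0.72 ± 0.44, 1.65-fold), below the 2-fold line but above 97.1% of the genes measured in kidney. The kidney levels were 211.5 and 348.2 where control liver read 51951.

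Nr0b2, the SHP gene, was the one member called lower in both liver and FAO cells. In liver its spots read 28394 and 26920 in control and 10850 and 10605 on the iron-free array, a difference of -1.37 ± 0.27 (2.58-fold lower), and 0.762% of measured genes were lower still. In FAO cells they read 6410 and 6836 without DFO and 2943 and 2875 with it, a difference of -1.19 ± 0.16 (2.28-fold lower), with 2.62% of measured genes lower. No spot of Nr0b2 lay in a noisy block on any of the 6 arrays. In kidney the spots were 1102 and 1037 against 899 and 921 (-0.23 ± 0.21), which did not overlap but differed by about the spot error.

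The liver value of Nr0b2 is -0.79 with scaling to the median of detected probes, under which the median of all liver genes is 0.58 higher. A constant per array does not change the gap between the Nr0b2 difference and those of other members, but other alternatives moved it. Nr0b2 minus Slc10a1 was -1.10 ± 0.29 log2 units (-1.36 to -0.91 over the alternatives). Nr0b2 minus Abcb11 was -0.81 ± 0.38 (-0.88 to -0.71). Nr0b2 minus Baat was -1.34 ± 0.38 (-1.67 to -0.92), and smallest in size without the noisy blocks, which held 1 control Baat spot. For Cyp7a1 minus Nr0b2 in liver the gap was 4.06 ± 0.33, and 3.29 to 4.06 over the alternatives. In FAO cells Baat minus Nr0b2 was -0.66 ± 0.30, and between -0.66 and -0.30 under the alternatives, and Nr0b2 minus Cyp27a1 was -0.53 ± 0.43.

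Nr1h4, the FXR gene, gave probe-dependent values. Its 1-spot probe read 11595 in control and 4991 in iron-free liver, a difference of -1.22 ± 0.38 (2.32-fold lower). Its 2-spot probe read 631 and 1013 in control and 673 and 513 in iron-free liver, where the spots of both arrays overlapped and the difference was -0.44 ± 0.27. The call therefore rests on 1 spot per array. In kidney and FAO cells the 1-spot probe gave -0.46 ± 0.35 and -0.42 ± 0.38 and the 2-spot probe -0.04 ± 0.28 and -0.07 ± 0.47, values near or below their spot errors. With another background correction the liver value of the 1-spot probe was -0.61, and averaged over both probes it was -0.83.

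The transporters could be read in liver alone. Abcb11 read 2945 and 2441 in control and 1839.5 and 1810 in iron-free liver, without overlap, a difference of -0.56 ± 0.27 that became 0.03 with scaling to the median of detected probes. Slc10a1 read 8068 to 28942 over its 10 control spots, where 2 lay in noisy blocks and the other 8 read from 12209 to 28942 with a median of 23481. Its 10 iron-free spots read 14936 to 17448, inside the control range. The difference was -0.26 ± 0.12 with 7 of 10 places lower, -0.44 without the noisy blocks and 0.32 with scaling to the median of detected probes. On the untreated FAO array 1 of 10 Slc10a1 spots was well above background, at 24.9.

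The wider pathway was read from other genes listed by role. Over all genes, 6.52% were called higher and 3.01% lower in liver. These shares were 3.11% and 1.26% in kidney, and 4.05% and 6.44% in FAO cells. The lists here and the cell markers below are small, and their counts were not tested against these shares. Of 16 other genes listed under synthesis, not all of them enzymes, 15 had a value in liver, and 0 were higher and 2 lower. Ephx1, microsomal epoxide hydrolase, was at -1.30 ± 0.28. Abcd3, a peroxisomal transporter of bile acid precursors, lay just past the 2-fold line, from 53392 to 26682. With scaling to the median of detected probes the Ephx1 and Abcd3 differences became -0.72 and -0.42, and neither was called. The median of the measured ones was -0.28. In FAO cells 2 of 10 with a value were lower, with a median of -0.28 over the measured ones. Akr1c14, a 3-alpha-hydroxysteroid dehydrogenase, was at -1.72 ± 0.39. Slc27a2, a very long-chain acyl-CoA synthetase, was at -1.06 ± 0.38 by 1 spot per array. In kidney 1 of 8 with a value was called higher, the racemase Amacr at 2.91 as a one-sided value, but without the noisy blocks it was -0.46, so the call was lost without those spots.

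Of 20 other transporters, 12 had a value in liver, where 1 was higher and none lower. It was Abcb1b, a multidrug efflux pump, at 1.05 ± 0.41 by 1 spot per array, with 2.86 by its other probe. Abcc4, a basolateral efflux pump, was at 0.04 ± 0.54 by the counted probe but at 2.36 by its other probe. Abcb1b was also higher in FAO cells, at 1.43 ± 0.24 by the same 1-spot probe and 1.59 by its other probe. There 3 of 12 were lower: Slco1a4, an organic anion carrier of the sinusoidal membrane, at a one-sided -1.68 ± 0.77, Fabp6, an intracellular bile acid binding protein, at -1.46 ± 0.83, and Abcc4 at -1.32 ± 0.39. The Abcc4 value in FAO cells was -0.51 without the noisy blocks and -0.54 by its other probe. The medians were -0.01 in liver and -0.33 in FAO cells, and in kidney 0 of 7 were called.

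Of 27 other regulators, 25 were on the array. In liver 20 had a value and 2 were lower: Hnf4a, the hepatocyte nuclear receptor, at -1.09 ± 0.58 on a dim probe, and Onecut1 (HNF6) at -1.03 ± 0.25, which was -0.87 without the noisy blocks. With scaling to the median of detected probes these were -0.51 and -0.45, and neither was called. In FAO cells 21 had a value. Cebpb, a stress- and cytokine-responsive transcription factor, was higher there by 1.54 ± 0.16, from 3484 to 10103. Gpbar1, the cell-surface bile acid receptor, and Nr1i3 (CAR) each had a one-sided value past 2-fold, 1.13 ± 1.15 and -1.33 ± 1.62, with spot errors about as large as the values. Each of these calls rests on 1 spot per array. In kidney 0 of 10 were called. The medians were -0.27 in liver, -0.13 in FAO cells and -0.19 in kidney.

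**Figure D4:**
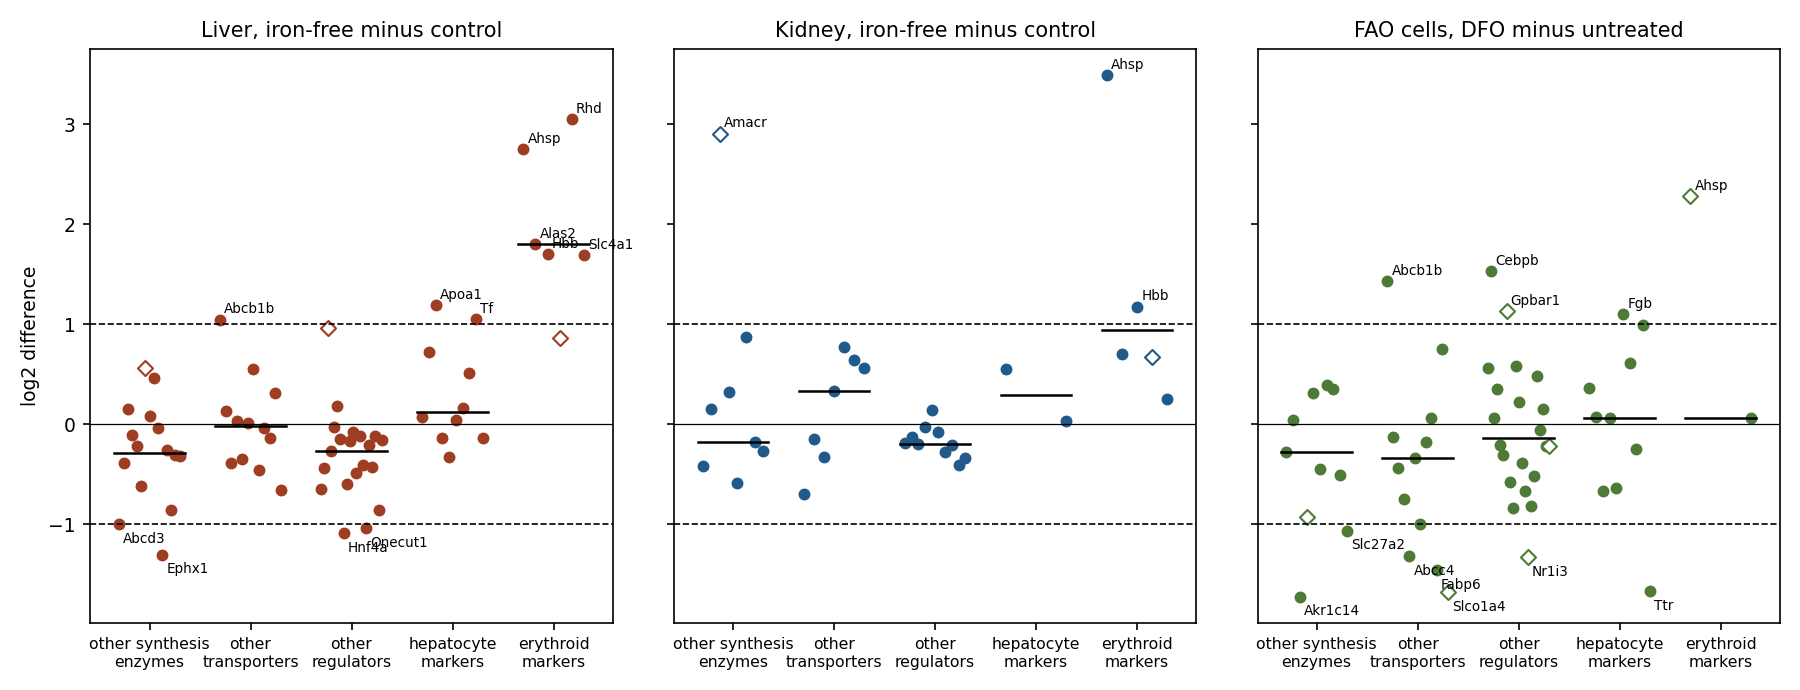
Treated minus control difference (log2 units) of each gene with a value among the other synthesis genes (labelled enzymes), transporters, regulators, hepatocyte markers and erythroid markers, with open diamonds for one-sided values, dashed lines at 2-fold and bars at the median of the measured genes. The erythroid markers of liver lie highest, with a median of 1.80, while the medians of the 3 bile acid lists lie between -0.28 and -0.01 in liver.

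Markers of other cells moved in the same liver comparison. Of 7 erythroid markers, 6 had a value in liver and 5 were higher, with a median of 1.80 and a summed signal of 44347 in control and 147675 in iron-free liver. Most of that sum is 1 Hbb probe, at 41604 and 135668, which had no value without the noisy blocks (4 were then higher), and the other Hbb probe was at 0.47. The other 4 were Ahsp, Alas2, Rhd and Slc4a1, at 1.69 to 3.06. In kidney 2 of 5 with a value were higher, Hbb and Ahsp, and the summed signal, again mostly Hbb (29899 and 67697), went from 32604 to 72934. The other Hbb probe was at -0.13 in kidney, so that call depends on the probe, while Ahsp was at 3.49 and 2.95 by its other probe. In FAO cells 2 erythroid markers had a value and 1 was higher. It was Ahsp, at a one-sided 2.28 ± 1.07, from 14.4 to 103.7, while Rhd was at 0.06 ± 1.16. Of 8 macrophage and leukocyte markers, 4 were higher in liver, Marco, S100a8, S100a9 and Lyz2, with a median of 0.26 over the measured ones, and 3 were higher without the noisy blocks, where Marco had no value. Among cholangiocyte markers, which label the bile duct lining, Krt7 was at 1.30 ± 0.29 by its counted probe and 0.89 by its other probe. Epcam was at -1.02 ± 0.65 by 1 spot per array, and Krt19 at 0.15 ± 0.32. Sox9 had a one-sided 0.83 ± 0.67, which passed 2-fold without the noisy blocks, so that 2 of the list were then called higher. The part of these cells in the member results was not tested.

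The hepatocyte markers had a median of 0.12 over 10 genes in liver, with Apoa1 at 1.19 ± 0.27, Alb at 0.73 ± 0.27 and Ttr at -0.14 ± 0.27. Tf read 1.05 ± 0.27 but -0.23 without the noisy blocks. In FAO cells the median was 0.07, with Alb at 0.07 ± 0.15. Fgb was at 1.11 ± 0.15 by one probe and 0.05 by another, and Ttr at -1.67 ± 0.16 but -0.65 without the noisy blocks. Baat and Nr0b2 in FAO cells had no spot in a noisy block, and their values there changed by the shift in scaling alone.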

How the data were processed

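The labels describe 6 samples, each 1 one-colour array of RNA pooled before labelling, and groups were taken from the sample titles. Per the file headers, the authors extracted spot intensities with Feature Extraction 10.7.3.1 (array design 028279); the deposited processed signal is a background-subtracted intensity on a linear scale. The authors' deposited series table gives a log2 value per probe and array; set against the scanner files, it is log2 intensity minus a value close to the array's 75th percentile, and its column medians were -3.43 (control liver), -3.29 (iron-free liver), -3.31 (control kidney), -3.26 (iron-free kidney), -4.13 (untreated FAO) and -4.17 (DFO-treated FAO).

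Here the 58717 gene spots gave a mean log2 intensity for each of 30367 probes, without the 680 to 1215 outlier spots of an array. Arrays were brought to one 75th percentile, taken over 9091 probes detected on every array. Detection of a probe required the scanner's well-above-background flag on all its spots. Where one array of a pair failed this, the bright value was set against the larger of the dim probe's signal and the lowest detected signal there, and the difference is called one-sided. The brightest probe stands for a gene in counts. All 10 members are named, and of other lists the called genes and markers that check a label. Spot errors were pooled in 20 bins of signal. No p-value was computed, and the number of arrays limits the precision. The limit of 0.25 for noisy blocks was set after seeing the data, and members and lists were chosen with earlier results of these data known. One erythroid marker is not reported here.

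There were 10 alternatives, in scaling, background, spots, probes and the authors' values. The ranges between liver, kidney and FAO levels, and those of gaps between members, leave out the mean over detected probes of a gene. Normexp background correction (limma 3.58.1, R 4.3.3, offset 50) used the median spot signal, since the mean signal was not in the files used here. The rest ran in Python 3.11.15 with numpy 2.4.6 and pandas 2.3.3. Spot averaging, scaling and the differences of bright probes were tried on simulated arrays with known changes. One-sided values, outlier spots, noisy blocks, the alternatives and the promoter search were not covered by that simulation. RefSeq promoters (GRCr8) were matched by gene symbol. Array headers name build rn4, so no coordinates of probes are given.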

Additional observations from a re-analysis of the deposited data

Results flagged for a closer look

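The Baat differences had opposite signs in kidney and FAO cells. Baat was at 0.72 ± 0.44 log2 units on the iron-free kidney array, which did not reach 2-fold and is under 2 spot standard errors, and at -1.85 ± 0.25 in DFO-treated FAO cells, each past its own spot error and with both spots in the direction given. The difference of the 2 differences was 2.57 log2 units, and it was not tested, since each group is 1 array. The kidney and FAO comparisons also differ in the exposure, a diet of 4 weeks against a chelator for 24 h.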

How the results depend on the processing

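Of 19 member differences, 15 kept their sign under all 10 alternatives. The liver differences of Baat, Slc27a5, Abcb11 and Slc10a1 did not. All 5 called differences kept their sign, and 3 kept the call throughout: Cyp7a1 in liver and Baat and Nr0b2 in FAO cells. The count of members called higher in liver was 1 and became 2 with scaling to the median of detected probes. The count called lower in liver was 2; it became 0 with that scaling, 1 with normexp background correction and 1 with the mean over detected probes of a gene. That scaling changes the split over all liver genes from 663 higher and 306 lower to 2120 and 78, and normexp gives 368 and 175. Leaving out the noisy blocks gave 496 and 287 in liver and, in FAO cells, 429 and 408 where 433 and 689 had been called. Signal over background limits what can be said of 6 members in kidney and 5 in FAO cells. No paired analysis was possible because each group is 1 array, and no array could be left out.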
